A study of Mus musculus with 5 samples.

Results

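Genes of the microtubule system were described in lungs of 129svJ mice after bleomycin: motors, tubulins and the machinery of cilia. They were chosen by name, as the symbols of the platform's annotation for kinesins (Kif), axonemal and cytoplasmic dyneins (Dnah, Dnai, Dnal, Dync, Dynl), tubulins (Tuba, Tubb, Tubg), intraflagellar transport (Ift), tektins (Tekt), Bardet-Biedl syndrome genes (Bbs), sperm-associated antigens (Spag), Tppp and end-binding proteins (Mapre). The choice used no measured value. It gave 92 genes, of which 71 were measured on at least 4 of the 5 arrays, among 10081 genes and unnamed features measured that often. Each array of this 2-colour series carried amplified lung RNA of 1 mouse treated with bleomycin, an antibiotic that cleaves DNA and injures the lung, beside a pool of amplified lung RNA from control mice of the same strain. The 5 mice, numbered 1 to 5, form 1 group. The pool is the same on every array, and its number of mice is not given in the sources used here. Age, sex, dose, route, time and dyes are not given either.

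Microtubules are hollow polymers of alpha and beta tubulin that grow from gamma tubulin and form the mitotic spindle, the tracks of intracellular transport and the core of cilia. Kinesins and dyneins are motors that walk along them, kinesins mostly outwards and cytoplasmic dynein inwards. In the lung, multiciliated airway cells carry motile cilia that beat by axonemal dyneins, and most other cells can carry a single primary cilium, which is built and maintained by intraflagellar transport.

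The values are log2 ratios between a bleomycin mouse and the pool, each array centred on its median. The log base is not stated, and folds assume log2. The labels leave unsettled which way the ratio runs, so a value is given as below or above 0, without saying whether the mouse or the pool held more RNA. All arrays ran the same way, since across the 71 genes each pair of arrays correlated with Pearson's r between 0.725 and 0.912. The arrays share the pool, which adds to these correlations, and genes are not independent replicates. A gene is called past the threshold when limma's test of the mean ratio against 0 had an adjusted p under 0.05 over all 10081. The pool enters that test without an error of its own, so p-values cover the spread between bleomycin mice only. Whether dyes were swapped between arrays is not known, so a dye effect may remain in the ratios. In whole lung, fewer cells of a type and less RNA per cell cannot be told apart.

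The 71 measured genes divided evenly by side but not by role. By limma, 20 were past the threshold below 0 and 21 above 0, and 30 did not pass. These are 28.2% and 29.6% of the measured genes, against 23.9% of all genes and features below 0 and 25.8% above 0 (49.6% on both sides). Of 41 called genes, 39 had every measured mouse on 1 side. Alpha, beta and gamma tubulins and most mitotic kinesins lay below 0, while intraflagellar transport, dynein-2 and Tppp genes lay mostly above 0. The 71 genes had a median of −0.04, close to the −0.01 of all genes and features, and the median size of their ratios was 0.27, against 0.21.

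**Figure D1:**
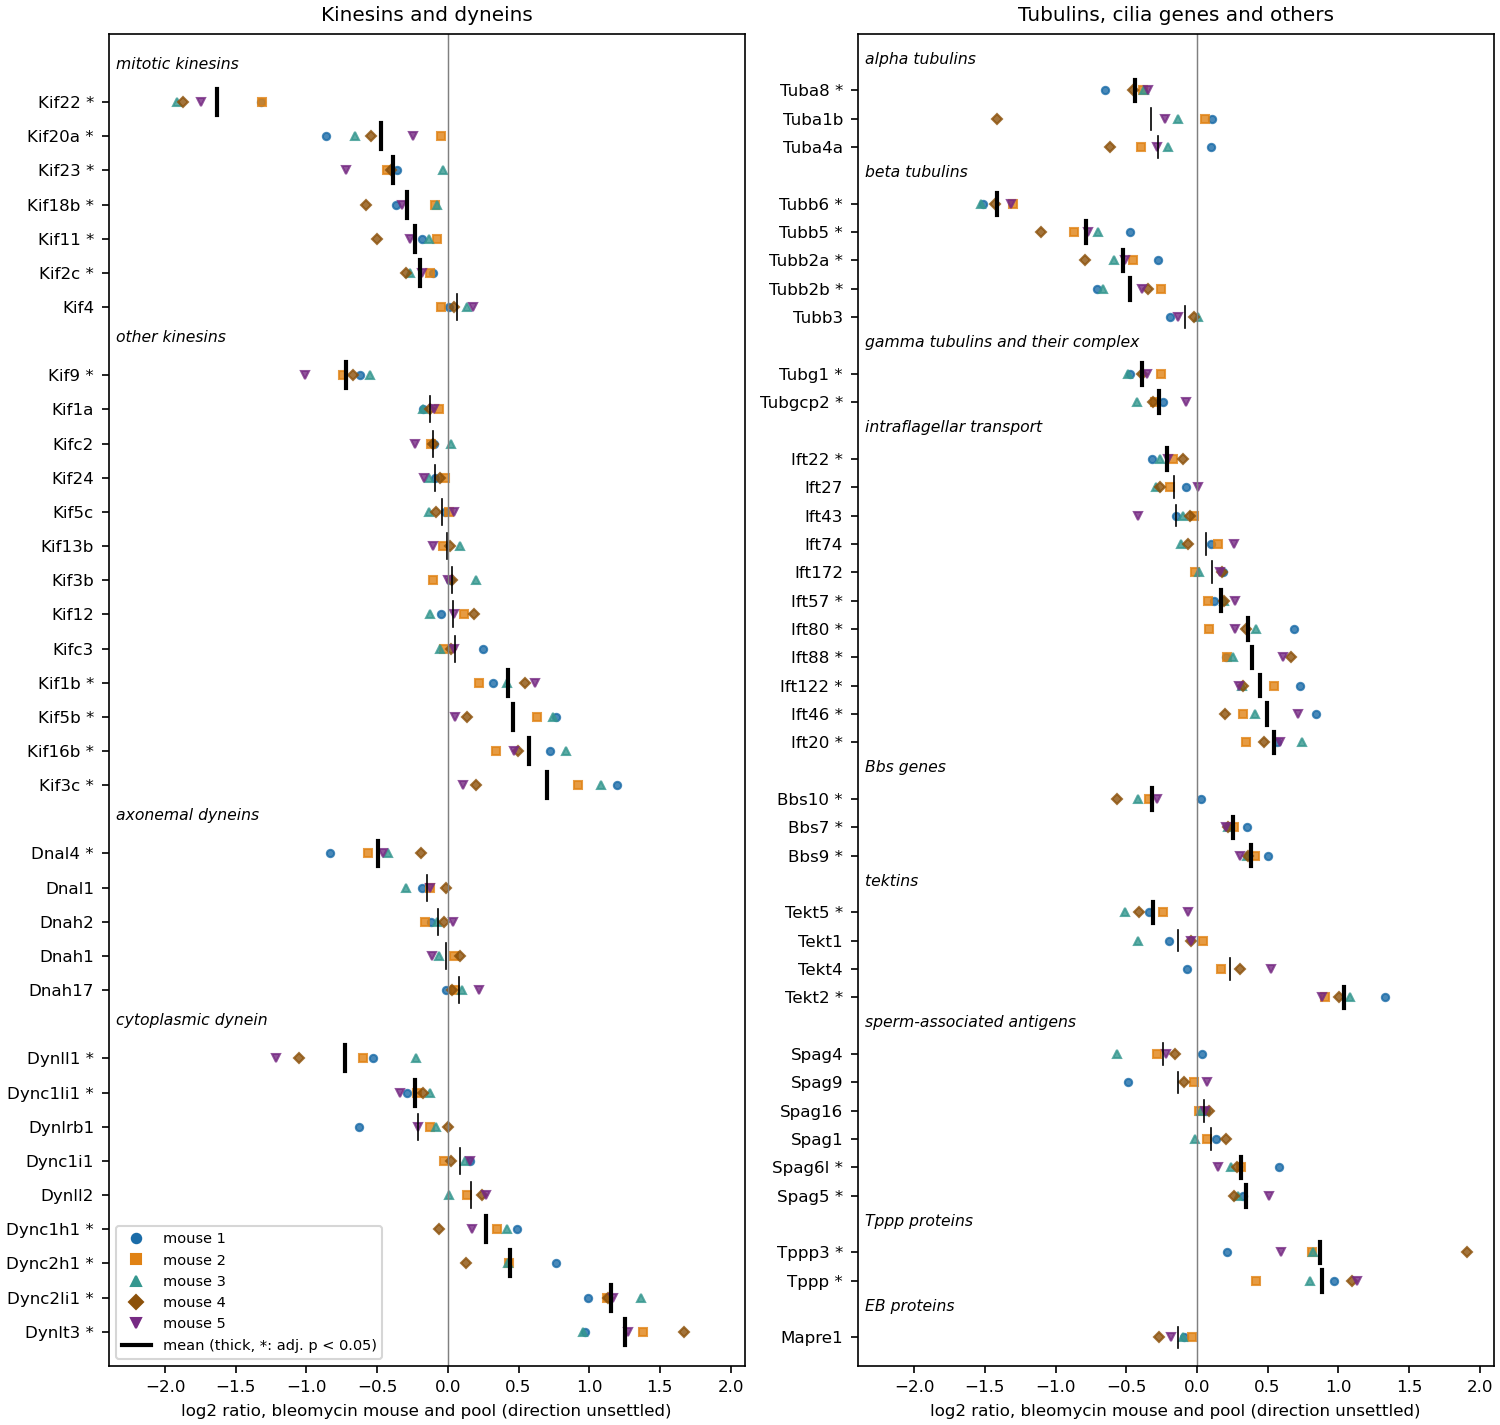
Log2 ratio of each of the 71 measured genes (horizontal axis) in mice 1 to 5 (symbols), grouped by role, with the mean over mice as a vertical bar that is thick where limma's adjusted p was under 0.05. All 10 tubulin and gamma complex genes have means below 0, and Kif22, Tubb6, Dync2li1, Dynlt3 and Tekt2 lie farthest from 0 with all mice on 1 side.

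Only 5 of the 71 differed at least 2-fold past the threshold, namely Kif22 and Tubb6 below 0 and Dync2li1, Dynlt3 and Tekt2 above 0. That is 7.04%, against 5.59% of all genes and features (2.35% below 0 and 3.24% above). The same 5 were those that passed under a stricter pool test, in which the pool was given the error of a single mouse. There 5.09% of all genes and features passed (2.11% below 0 and 2.98% above). The other 36 called genes of the 71 met the threshold with the pool taken as free of error, but not with the error of a single mouse. Pool errors between these were not tried. In limma's test against a minimum difference of 1.2-fold, 6 genes passed on each side, 16.9% in all, against 18.3% of all genes and features (8.04% below 0 and 10.3% above).

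**Figure D2:**
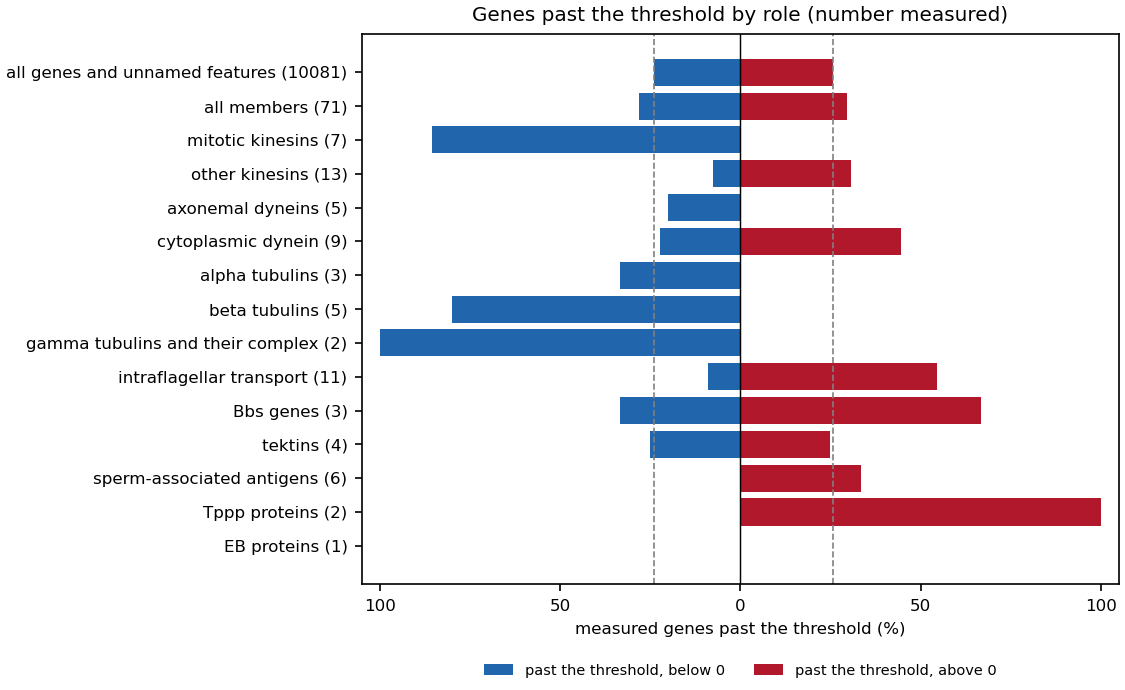
Percentage of measured genes past the threshold (horizontal axis), below 0 to the left and above 0 to the right, for all genes and features, all measured genes of the microtubule system and each role, with the number measured in brackets. The dashed lines mark the shares of all genes and features, 23.9% below and 25.8% above 0, and roles hold between 1 and 13 measured genes.

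Mitotic kinesins lay below 0. These motors build the spindle, align chromosomes and complete division. Of 9 on the platform, 7 were measured, of which 6 were called below 0 and 0 above, against 23.9% of all genes below 0; the median of the 7 was −0.29. Kif22, the chromokinesin that pushes chromosome arms towards the spindle equator, stood at −1.32, −1.31, −1.92, −1.88 and −1.74 in mice 1 to 5. All mice lay far below 0, mice 1 and 2 the least, with a mean of −1.63 ± 0.296 (SD, n = 5; a 3.1-fold difference; adjusted p = 6.59e-05). It ranked within the lowest 0.6% of all genes and features.

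The other called mitotic kinesins had smaller ratios. Kif20a, which carries regulators of cytokinesis to the central spindle, stood at −0.86, −0.048, −0.66, −0.54 and −0.24 (mean −0.47 ± 0.33, adjusted p = 0.0147). Mouse 2 was close to 0 and mouse 1 lowest. Kif23, the motor subunit of centralspindlin, stood at −0.36, −0.43, −0.032, −0.40 and −0.72 (mean −0.39 ± 0.24, adjusted p = 0.0125), with mouse 3 near 0 and mouse 5 lowest. Kif18b, which shortens astral microtubules, averaged −0.29 ± 0.21, Kif11, the motor that pushes spindle poles apart, −0.23 ± 0.17, and the microtubule depolymerase Kif2c −0.195 ± 0.085. Every mouse was below 0 for all 6. Mouse 2 was nearest to 0 for Kif22, Kif20a and Kif11, mouse 3 for Kif23 and Kif18b, and mouse 1 for Kif2c. Kif4, the chromokinesin that organizes the anaphase midzone, did not pass, at 0.011, −0.048, 0.13, 0.042 and 0.18 (mean 0.063 ± 0.091; 95% interval of the mean from limma −0.06 to 0.19).

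The calls of Kif22 and Kif23 held without any single mouse, and those of the other 4 did not. Kif20a lost its call without mouse 3 (adjusted p = 0.0519). Kif18b lost it without mouse 1, 4 or 5 (adjusted p = 0.0631, 0.0625 and 0.0707) and Kif11 without mouse 1, 3, 4 or 5 (adjusted p from 0.0514 to 0.0839). Kif2c lost it without mouse 3 or 4 (adjusted p = 0.0627 and 0.0616). The count of called mitotic kinesins was 3 without mouse 3, 3 without mouse 4, and 2, Kif22 and Kif2c, with a plain one-sample test.

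Other genes of the spindle and of division lay mostly on the same side. On a list of 35 such genes on the platform that are not motors of the Kif family, 24 were measured, of which 18 were called below 0 and 3 above, against 23.9% and 25.8% of all genes and features, with a median of −0.601. The kinase Cdk1, which drives entry into mitosis, stood at −1.95 ± 0.25, and Spc25, a subunit of the Ndc80 complex that ties kinetochores to microtubules, at −1.73 ± 0.23. All 4 genes of that complex were called below 0. On the other side were the checkpoint kinase Ttk at 0.42 ± 0.16, the mitotic kinase Plk1 at 0.32 ± 0.197 and Nusap1, a spindle-bundling protein, at 0.17 ± 0.062. Nusap1 lost its call without mouse 1, 2, 3 or 4 (adjusted p from 0.0506 to 0.0729). The list was written with earlier results on cell cycle genes of these arrays known, so it is not independent evidence of a side.

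Spag5, astrin, a spindle and kinetochore protein carried by the Spag symbol, lay on the opposite side from the mitotic kinesins. It stood at 0.32, 0.29, 0.26 and 0.51 in mice 1, 3, 4 and 5, with no value in mouse 2 (mean 0.35 ± 0.11, n = 4, adjusted p = 0.00706). The median of 6 measured markers of dividing cells was −1.07, −0.70, −1.06, −0.84 and −0.44 in mice 1 to 5. All 6 markers were called below 0, against 23.9% of all genes and features. The median of the 7 mitotic kinesins was −0.36, −0.09, −0.13, −0.501 and −0.27 in the same mice. The part of dividing cells in these ratios was not tested.

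**Figure D3:**
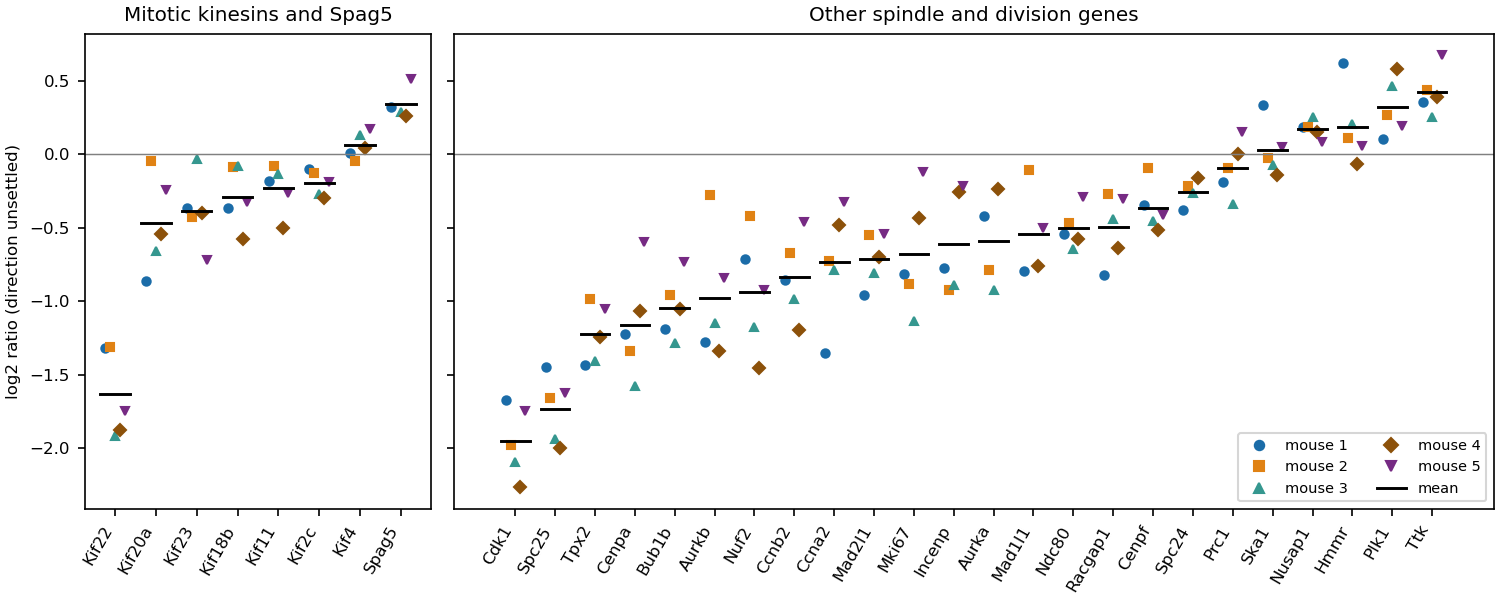
Log2 ratios (vertical axis) of the 7 measured mitotic kinesins and Spag5 (left) and of the 24 measured spindle and division genes outside the family (right) in mice 1 to 5, with horizontal bars for means. Kif22 at −1.63 is lowest on the left, Kif4 straddles 0, and Spag5 lies above 0 in the 4 mice measured; on the right the means run from −1.95 for Cdk1 to 0.42 for Ttk.

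The promoters of 6 of the 7 measured mitotic kinesins share letters that the rule did not use. Genes of mitosis are known to carry a cell cycle homology region, searched as TTTGAA, close to the start of transcription, often with a CCAAT box some way upstream. Windows of 250 bases before to 50 after each start came from RefSeq (GRCm38.p6), for 56 of the 71 measured genes and 27025 genes in all. TTTGAA, on either strand, was found in all 6 windows of measured mitotic kinesins, namely those of Kif22, Kif23, Kif18b, Kif11, Kif2c and Kif4. No window was available for Kif20a. TTTGAA was found in 17.9% of all 32851 windows and in 4 of the 58 windows of the other measured genes. CCAAT, on either strand, stood in 5 of the 6 windows and in 37.4% of all. The motifs were chosen after the ratios were seen, and a match is a description, not a bound site.

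The whole window of Kif22 is shown because it had the largest ratio, then 60 bases around the TTTGAA match nearest to the start in the others, with Spag5 for contrast. Capitals mark TTTGAA and CCAAT on either strand, read 5′ to 3′ on the gene's strand.
Kif22 (chr7:127042371-127042670, minus strand): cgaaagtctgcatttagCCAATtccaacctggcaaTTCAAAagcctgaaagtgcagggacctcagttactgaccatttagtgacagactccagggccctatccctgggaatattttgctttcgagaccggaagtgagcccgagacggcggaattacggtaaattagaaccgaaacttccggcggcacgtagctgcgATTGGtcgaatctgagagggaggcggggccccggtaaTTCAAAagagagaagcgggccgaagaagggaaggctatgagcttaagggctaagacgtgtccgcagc
Kif23 (chr9:61946778-61946837, minus strand): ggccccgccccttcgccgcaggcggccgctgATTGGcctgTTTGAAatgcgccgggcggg
Kif18b (chr11:102925102-102925161, minus strand): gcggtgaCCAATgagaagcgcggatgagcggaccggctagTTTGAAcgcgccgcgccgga
Kif11 (chr19:37376323-37376382, plus strand): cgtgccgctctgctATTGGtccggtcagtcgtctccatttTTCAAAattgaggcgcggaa
Kif2c (chr4:117178856-117178915, minus strand): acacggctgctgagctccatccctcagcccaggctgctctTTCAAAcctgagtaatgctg
Kif4 (chrX:100626044-100626103, plus strand): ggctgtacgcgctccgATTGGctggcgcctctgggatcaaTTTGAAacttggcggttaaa
Spag5 (chr11:78301554-78301613, plus strand): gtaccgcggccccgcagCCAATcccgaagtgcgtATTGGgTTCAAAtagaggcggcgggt
Counting the start of transcription as base 1, the match began at base −17 in Kif22, −19 in Kif11, 3 in Kif23 and 4 in Kif18b. In Kif4, whose ratio did not pass, it began at base 20, and in Spag5, which lay above 0, at base 4. The letters were thus present in genes on either side of 0, and Kif2c, with its match at base −103, held no CCAAT in its window.

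Kinesins of transport, of cilia and of microtubule turnover were mostly near 0. Of 21 on the platform, 13 were measured, of which 1 was called below 0 and 4 above, and 8 did not pass. The called share was 38.5%, against 49.6% of all genes and features. Kif3c, a neuronal-type subunit of kinesin-2, stood at 1.199, 0.92, 1.09, 0.20 and 0.11 in mice 1 to 5 (mean 0.703 ± 0.51, adjusted p = 0.0152). Mice 1 to 3 were high and mice 4 and 5 close to 0. Kif5b, the widely expressed heavy chain of kinesin-1, stood at 0.77, 0.63, 0.74, 0.13 and 0.052 (mean 0.46 ± 0.34, adjusted p = 0.0186), with the same mice high and low. Kif16b, which moves early endosomes, averaged 0.57 ± 0.199 (adjusted p = 0.0013) and Kif1b, a carrier of mitochondria and vesicle precursors, 0.43 ± 0.16 (adjusted p = 0.00254), with all mice above 0 for both. Kif3c lost its call without mouse 2 or 3 (adjusted p = 0.0527 and 0.0534), and Kif5b without mouse 1, 2 or 3 (adjusted p = 0.0513, 0.0627 and 0.0632).

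Close relatives of these motors differed in whether they passed. Kif3b, the partner of Kif3a in the kinesin-2 that drives intraflagellar transport, averaged 0.026 ± 0.11 (adjusted p = 0.726), and Kif5c, a neuronal kinesin-1, −0.039 ± 0.071 (adjusted p = 0.547). The difference between relatives was not tested. Kifap3, the subunit that joins kinesin-2 to cargo, stood at 0.35 ± 0.11, called above 0. Kif1a, Kifc2, Kif24, Kif13b, Kif12 and Kifc3 had means between −0.13 and 0.05 and did not pass. The sole call below 0 was Kif9, a motor of the central pair of motile cilia, at −0.62, −0.74, −0.55, −0.67 and −1.01 (mean −0.72 ± 0.18, a 1.65-fold difference, adjusted p = 0.000363). All mice were far from 0, mouse 5 the farthest.

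Partners and adaptors of kinesins, from a list of 15 genes on the platform, were measured for 10, of which 1 was called below 0 and 3 above. That is 40%, against 49.6% of all genes and features. Kifbp, which binds kinesins and holds them off microtubules, stood highest at 1.22 ± 0.27 (n = 5, adjusted p = 0.000145), followed by Rhot1, a mitochondrial adaptor, at 0.36 ± 0.19. The light chain Klc3 stood at −0.401 ± 0.22. Kifbp also passed the stricter pool test (adjusted p = 0.0402).

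Alpha, beta and gamma tubulins lay below 0. All 10 measured genes of alpha, beta and gamma tubulin, with the gamma complex gene Tubgcp2, had means below 0, and 7 of them were called below 0 and 0 above, against 23.9% and 25.8% of all genes and features. Tubb6, a beta isotype found in many tissues, stood at −1.51, −1.30, −1.53, −1.43 and −1.31 in mice 1 to 5. The mice lay close together, and the mean was −1.42 ± 0.11 (SD, n = 5; a 2.67-fold difference; adjusted p = 1.96e-05). Tubb5, the main beta tubulin of dividing cells, stood at −0.48, −0.87, −0.703, −1.11 and −0.77 (mean −0.79 ± 0.23, adjusted p = 0.000544), with mouse 4 lowest and mouse 1 nearest to 0. Tubb2a averaged −0.53 ± 0.19 (adjusted p = 0.00162) and the related isotype Tubb2b −0.47 ± 0.200 (adjusted p = 0.00301). Tubb3, the neuronal beta tubulin, did not pass, at −0.084 ± 0.094 on 4 arrays. All measured mice were below 0 for the 4 called beta tubulins. Delta and epsilon tubulin, outside the chosen symbols, were called on opposite sides. Tubd1 stood above 0 at 0.65 ± 0.53 (adjusted p = 0.0222), with mice 4 and 5 near 0, and Tube1 below 0 at −0.42 ± 0.13.

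Alpha tubulins were less alike between mice. Tuba8, an isotype of muscle and testis, averaged −0.44 ± 0.12 and was below 0 in all mice (−0.65, −0.38, −0.38, −0.45 and −0.35; adjusted p = 0.00119). The widely expressed Tuba1b stood at 0.104, 0.058, −0.14, −1.42 and −0.23, with mouse 4 far below the others (mean −0.32 ± 0.63, adjusted p = 0.246). Tuba4a stood at 0.102, −0.39, −0.21, −0.62 and −0.28 (mean −0.28 ± 0.26, adjusted p = 0.052), again lowest in mouse 4 and above 0 in mouse 1; without mouse 1 its mean was −0.37 and it passed (adjusted p = 0.0115). In the gamma tubulin ring that seeds microtubules, Tubg1 averaged −0.39 ± 0.095 (adjusted p = 0.0013) and Tubgcp2 −0.27 ± 0.13 (adjusted p = 0.00974). Both were below 0 in every mouse. Tubulin isotypes are close in sequence, and the features' sequences were not analysed here, so signal from 1 isotype may stand in another's value.

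Of 11 measured skeletal muscle markers, 8 were called below 0, against 23.9% of all genes and features. The markers had medians of −3.89, −3.19, −0.20, −0.48 and −2.11 in mice 1 to 5. Their part in the ratios of the tubulins and of the other microtubule genes was not tested. Without mice 1 and 2 together, the 2 with the lowest medians, 14 genes of the 71 were called below 0 and 15 above. With all mice these counts were 20 and 21. Mouse 5, which stays in that count, also had a low marker median. Calls among all genes and features fell as well with these arrays left out. They numbered 5002 of 10081 with all mice, and the lower count is given in the last section. The count therefore cannot separate muscle from the loss of arrays and is no test of the part of muscle.

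**Figure D4:**
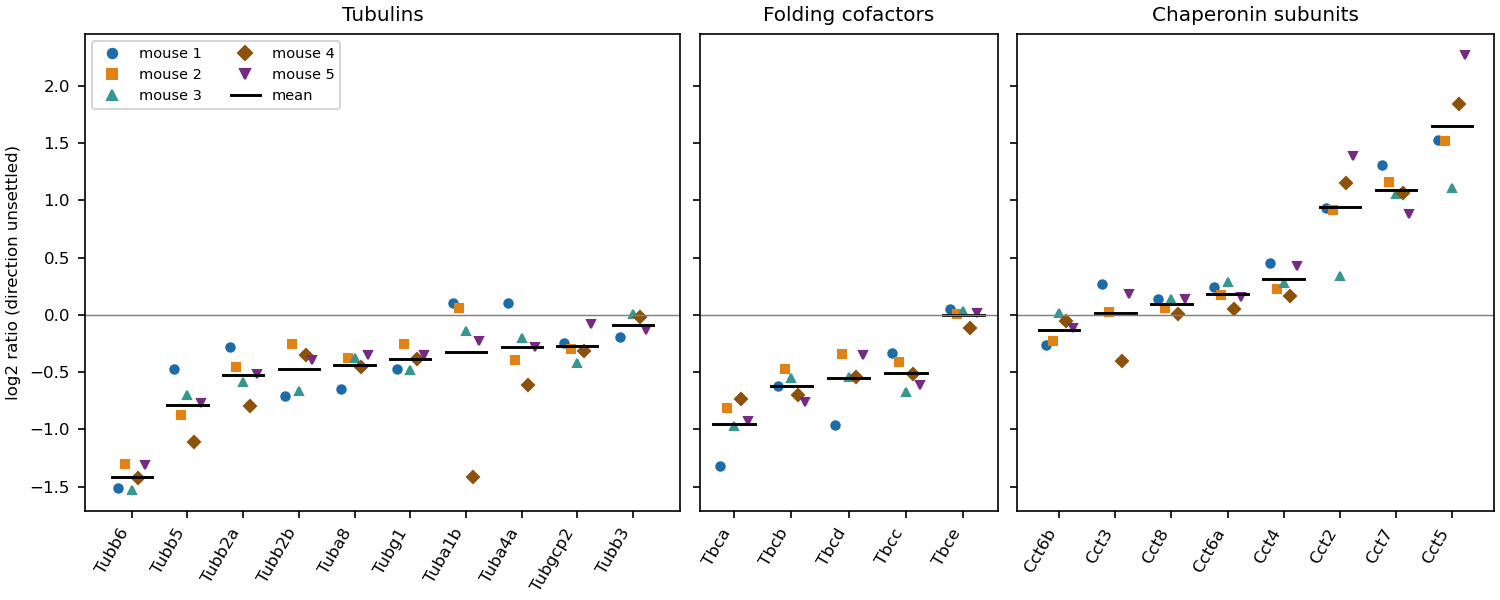
Log2 ratios (vertical axis) of alpha, beta and gamma tubulin genes with Tubgcp2 (left), tubulin folding cofactors (middle) and subunits of the chaperonin that folds tubulin (right) in mice 1 to 5, with horizontal bars for means. Tubulins and 4 cofactors have means from −1.42 to −0.08, Tbce lies at 0 (−0.001, or 0.015 without centring), and chaperonin subunits run from −0.13 to 1.65.

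New tubulin is folded by the cytosolic chaperonin and then passed to the cofactors that join alpha to beta subunits. Most cofactors were called below 0 and most chaperonin subunits above 0, and the difference between the sets was not tested. Of 5 cofactors, 4 were called below 0 and 0 above: Tbca, which takes up beta tubulin, stood at −1.32, −0.81, −0.97, −0.73 and −0.93 (mean −0.95 ± 0.23, n = 5, adjusted p = 0.00023), Tbcb, which takes up alpha tubulin, at −0.62 ± 0.11, Tbcd at −0.55 ± 0.25 and Tbcc at −0.51 ± 0.14. Tbce stood at −0.001, and at 0.015 without centring. Of 8 measured chaperonin subunits, 5 were called above 0 and 0 below, and Cct6b, Cct3 and Cct8, at −0.13, 0.018 and 0.097, did not pass. Cct5 stood at 1.53, 1.52, 1.11, 1.84 and 2.27 (mean 1.65 ± 0.43, adjusted p = 0.000221), Cct7 at 1.09 ± 0.16 and Cct2 at 0.95 ± 0.39, with all mice above 0 for each. Over all genes and features, 23.9% were called below 0 and 25.8% above. Both sets were picked out of the longer list below after their values were seen. In the stricter pool test, Cct7 passed (adjusted p = 0.0197) and Cct5 and Tbca did not (adjusted p = 0.0544 and 0.0558).

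On the whole list of 68 microtubule regulators on the platform, 53 were measured, of which 12 were called below 0 and 20 above, with a median of 0.03. That is 60.4% called, against 49.6% of all genes and features. Below 0, after Tbca, came Svbp, the partner of the enzymes that remove the last tyrosine of alpha tubulin, at −0.73 ± 0.14. Above 0 were the 3 measured stathmins, which bind free tubulin, with Stmn2 at 0.91 ± 0.14, Stmn1 at 0.44 ± 0.091 on 4 arrays and Stmn4 at 0.36 ± 0.28. Stmn4 lost its call without mouse 1, 4 or 5 (adjusted p = 0.0534, 0.0735 and 0.0661). Also above 0 were Macf1, which links microtubules to actin, at 0.81 ± 0.097, and Arl2, a small GTPase of the tubulin folding pathway, at 0.76 ± 0.15. The list thus held calls on both sides.

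Genes of cytoplasmic dynein were called on both sides of 0, as were all genes and features. Of 11 genes on the platform, 9 were measured. Of these, 2 were called below 0 and 4 above, against 23.9% and 25.8% of all genes and features. Dynein-2 pulls intraflagellar transport back down the cilium. Its light intermediate chain Dync2li1 stood at 0.99, 1.13, 1.37, 1.13 and 1.17 in mice 1 to 5. All mice were close together, with a mean of 1.16 ± 0.14 (SD, n = 5; a 2.23-fold difference; adjusted p = 3.2e-05). Its heavy chain Dync2h1 stood at 0.77, 0.43, 0.43 and 0.13 in mice 1 to 4, with no value in mouse 5 (mean 0.44 ± 0.26, adjusted p = 0.016). Dync2h1 lost its call without mouse 2 or 3 (adjusted p = 0.054 and 0.0522).

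Dynein-1, the general motor towards the cell centre, had 1 call on each side. Its heavy chain Dync1h1 stood at 0.49, 0.35, 0.42, −0.066 and 0.17 (mean 0.27 ± 0.22, adjusted p = 0.0366), with mouse 4 on the other side of 0, and it lost its call without mouse 1, 2, 3 or 5 (adjusted p from 0.0634 to 0.11). The light intermediate chain Dync1li1 averaged −0.23 ± 0.087 (adjusted p = 0.0105), below 0 in all mice, and the intermediate chain Dync1i1 0.087 ± 0.083, which did not pass.

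The light chains lay far apart. Dynlt3, a Tctex-type light chain, stood at 0.97, 1.38, 0.95, 1.67 and 1.28 (mean 1.25 ± 0.301, a 2.38-fold difference, adjusted p = 0.000188). Every mouse was above 0, mouse 4 the highest. Dynll1, a light chain that also serves as a hub for many other proteins, stood at −0.53, −0.597, −0.23, −1.06 and −1.21 (mean −0.72 ± 0.404, adjusted p = 0.00556). Mice 4 and 5 were lowest and mouse 3 nearest to 0. Dynll2, its near relative, averaged 0.16 ± 0.12 on 4 arrays and Dynlrb1 −0.21 ± 0.25; neither passed.

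Dynactin and regulators of dynein, a list of 18 genes on the platform, were measured for 14, of which 3 were called below 0 and 5 above. That is 57.1%, against 49.6% of all genes and features. Nde1, which recruits Lis1 to dynein, stood at 0.62 ± 0.067 (n = 5, adjusted p = 0.000133) and the late endosomal GTPase Rab7 at 0.58 ± 0.081. The actin-capping subunit Capzb of dynactin stood at −0.87 ± 0.32, and Dctn3, a subunit of the dynactin shoulder, at −0.39 ± 0.302. Dctn3 lost its call without mouse 2, 3 or 5 (adjusted p = 0.0633, 0.0736 and 0.0584).

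**Figure D5:**
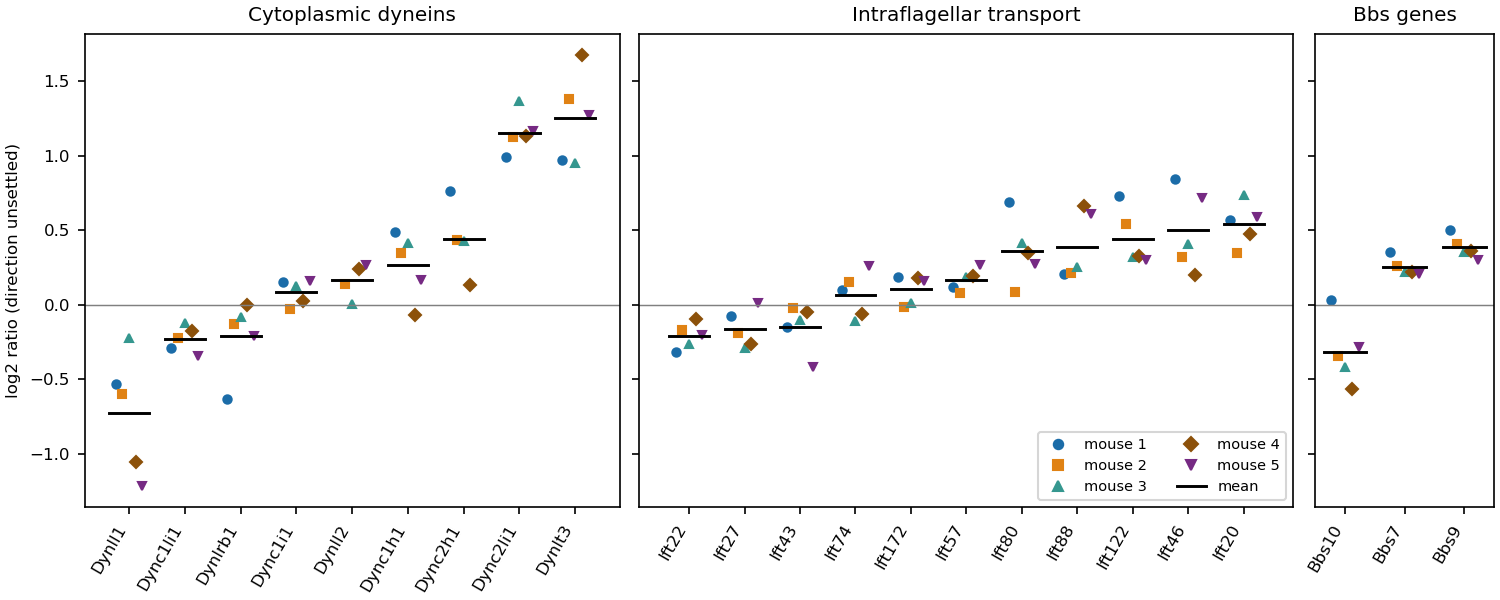
Log2 ratios (vertical axis) of measured cytoplasmic dynein genes (left), intraflagellar transport genes (middle) and Bbs genes (right) in mice 1 to 5, with horizontal bars for means. Dynll1 at −0.72 and Dynlt3 at 1.25 mark the ends on the left, and intraflagellar transport means run from −0.21 for Ift22 to 0.54 for Ift20.

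Genes of intraflagellar transport lay mostly above 0. Trains of IFT-A and IFT-B proteins carry tubulin and other parts along the cilium. Of 13 on the platform, 11 were measured, of which 6 were called above 0 and 1 below. Of all genes and features, 25.8% were called above 0 and 23.9% below. The median of the 11 was 0.17. Ift20, which also works at the Golgi, stood at 0.57, 0.35, 0.74, 0.47 and 0.59 in mice 1 to 5 (mean 0.54 ± 0.15, adjusted p = 0.00071). Ift46 stood at 0.85, 0.32, 0.41, 0.20 and 0.72 (mean 0.499 ± 0.27, adjusted p = 0.0064) and the IFT-A subunit Ift122 at 0.73, 0.55, 0.32, 0.33 and 0.30 (mean 0.44 ± 0.19, adjusted p = 0.00329). Every mouse was above 0 for these genes, and mouse 1 was highest for Ift46 and Ift122. Ift88, a core IFT-B protein, averaged 0.39 ± 0.23, Ift80 0.36 ± 0.22 and Ift57 0.17 ± 0.074, with all mice above 0. Ift57 lost its call without mouse 3, 4 or 5 (adjusted p = 0.0746, 0.0731 and 0.087).

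The other subunits lay below or near 0. Ift22, a Rab-like GTPase, was called below 0, at −0.21 ± 0.085 (adjusted p = 0.0147), with all mice below 0. Ift27, also a Rab-like GTPase, averaged −0.16 ± 0.13 (adjusted p = 0.0656) and passed without mouse 5 (mean −0.20, adjusted p = 0.0455). Ift43, Ift74 and Ift172 did not pass, with means of −0.15, 0.07 and 0.11. Of IFT-A genes 1 of 2 measured was called above 0, and of IFT-B genes 5 of 9 were called above 0 and 1 below. Over all genes and features, 25.8% were called above 0 and 23.9% below. The IFT-A and IFT-B sets were picked after values were seen.

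The BBSome is a coat that moves membrane proteins out of cilia with these trains. Its subunits Bbs9 and Bbs7 were above 0 in all mice, at 0.39 ± 0.076 (adjusted p = 0.00102) and 0.25 ± 0.059 (adjusted p = 0.00485). Their mice lay close together, between 0.30 and 0.503 for Bbs9 and between 0.21 and 0.35 for Bbs7. Bbs10, a chaperonin-like protein needed to assemble the BBSome, stood at 0.03, −0.34, −0.42, −0.56 and −0.28 (mean −0.31 ± 0.22, adjusted p = 0.0205), with mouse 1 on the other side of 0. Bbs10 lost its call without mouse 2, 3, 4 or 5 (adjusted p from 0.0509 to 0.0667).

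Other genes of the primary cilium and basal body, a list of 47 on the platform, were called about as often as all genes and features. Of 27 measured, 7 were called below 0 and 7 above, with a median of −0.04. That is 51.9% called, against 49.6% of all genes and features. Centrin 2, Cetn2, stood at −1.04 ± 0.59 on 4 arrays and the centriole protein Ofd1 at −0.52 ± 0.46. Septin2, of the septin ring at the base of the cilium, stood at 0.48 ± 0.35 and the ciliary phosphatase Inpp5e at 0.41 ± 0.11. The mean of Ofd1 was −0.32 without mouse 1, and its call was lost without mouse 3 or 4 (adjusted p = 0.0649 and 0.0748).

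Parts of the motile axoneme were called on both sides, as were all genes and features. Of 12 measured (axonemal dyneins, tektins, Spag6l, Spag16 and Kif9), 3 were called below 0 and 2 above. Over all genes and features the shares were 23.9% and 25.8%. Tekt2, a filament protein inside the axonemal doublets, stood at 1.33, 0.903, 1.09, 1.004 and 0.88 in mice 1 to 5 (mean 1.04 ± 0.18, a 2.06-fold difference, adjusted p = 8.5e-05). All mice were far above 0, mouse 1 the highest. Tekt5 lay below 0 in all mice, at −0.31 ± 0.17 (adjusted p = 0.0109). Tekt1 and Tekt4 did not pass, at −0.13 ± 0.18 and 0.23 ± 0.25; Tekt4, on 4 arrays, passed without mouse 1 (mean 0.34, adjusted p = 0.0319). Spag6l, a central pair protein, averaged 0.31 ± 0.16 (adjusted p = 0.00944), with all mice above 0, and Spag16, another, 0.049 ± 0.030, which did not pass. The 2 kept features of Spag16, each on 4 arrays, had means of −0.044 and 0.149.

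Axonemal dyneins, the motors of ciliary beating, were near 0. Of 8 on the platform, 5 were measured, and the single call was Dnal4, a light chain, at −0.83, −0.57, −0.43, −0.19 and −0.46 (mean −0.49 ± 0.23, adjusted p = 0.004). Dnal4 was below 0 in all mice, mouse 1 the lowest. The called share was 20%, against 49.6% of all genes and features. Dnah1, Dnah2 and Dnah17, heavy chains, had means of −0.01, −0.07 and 0.08, and the light chain Dnal1 stood at −0.15 ± 0.103. The 95% interval of the mean from limma ran from −0.16 to 0.14 for Dnah1, from −0.19 to 0.05 for Dnah2 and from −0.05 to 0.203 for Dnah17.

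Other genes of motile cilia, a list of 54 on the platform, were measured for 32, of which 6 were called below 0 and 8 above, with a median of 0.04. That is 43.8% called, against 49.6% of all genes and features. The kinase Stk33 stood at 0.78 ± 0.15 and the adenylate kinase Ak7 at 0.67 ± 0.16, while Cfap298 and Ccdc103, which help to assemble dynein arms, stood at −0.43 ± 0.13 and −0.43 ± 0.26. Foxj1, the transcription factor that programs multiciliated cells, stood at −0.32 ± 0.090 (adjusted p = 0.00276), on the other side from Tekt2. Of 7 measured markers of ciliated airway epithelium, 2 were called below 0 and 3 above, against 23.9% and 25.8% of all genes and features. Cfap126, a ciliary protein, was the lowest at −0.36 ± 0.33, and without mouse 1 its mean was −0.23. Its call was lost without mouse 1, 2, 3 or 5 (adjusted p from 0.0593 to 0.103), and with the arrays not centred again (adjusted p = 0.0525). The median of the markers was 0.23, 0.16, −0.04, 0.303 and 0.22 in mice 1 to 5. The part of ciliated cells in the ratios of cilia genes was not tested.

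RFX factors, which drive genes of cilia, bind an X-box, of which the half-site was searched as GTTGCC on either strand. It stood in 21 of the 58 promoter windows of the measured genes other than mitotic kinesins, and in 12.5% of all windows. The letters GGGCGG, a GC box searched in the same way, stood in 32 of these 58 windows and in 35.7% of all. Those 58 include tubulins and transport motors, and some genes have several windows. By role, it stood in 4 of 9 intraflagellar transport windows, 4 of 7 tektin windows, 6 of 12 of other kinesins and 0 of 5 of axonemal dyneins. The windows of Tekt2 and Kif9 are shown because these motile cilia genes had the largest ratios on opposite sides and both held the half-site. Capitals mark GTTGCC on either strand, read on the gene's strand.
Tekt2 (chr4:126325639-126325938, minus strand): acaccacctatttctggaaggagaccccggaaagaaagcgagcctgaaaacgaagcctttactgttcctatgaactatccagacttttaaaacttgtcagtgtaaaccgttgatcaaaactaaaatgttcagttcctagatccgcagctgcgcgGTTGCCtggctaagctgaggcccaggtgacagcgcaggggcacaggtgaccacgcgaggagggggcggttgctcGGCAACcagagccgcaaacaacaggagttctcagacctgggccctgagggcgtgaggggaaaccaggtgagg
Kif9 (chr9:110476708-110477007, plus strand): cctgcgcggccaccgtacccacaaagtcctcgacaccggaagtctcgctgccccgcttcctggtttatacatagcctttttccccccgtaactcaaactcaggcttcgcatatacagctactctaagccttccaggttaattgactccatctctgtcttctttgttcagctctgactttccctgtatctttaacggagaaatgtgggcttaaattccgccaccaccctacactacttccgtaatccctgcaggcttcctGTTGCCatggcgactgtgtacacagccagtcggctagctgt
In this window of Tekt2 the half-sites began at bases −96 and −22 from the start, and in that of Kif9 at base 10. The half-site was thus in windows of genes on both sides of 0.

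Both Tppp genes, which bundle and stabilize microtubules, lay above 0 in all mice. Tppp stood at 0.97, 0.42, 0.802, 1.09 and 1.14 (mean 0.88 ± 0.29, a 1.84-fold difference, adjusted p = 0.000719). Tppp3, which is abundant in ciliated cells and some stromal cells, stood at 0.21, 0.82, 0.82, 1.91 and 0.596 (mean 0.87 ± 0.63, adjusted p = 0.0143). Mouse 4 was highest and mouse 1 lowest for Tppp3, and it missed the threshold with a plain one-sample test (adjusted p = 0.0771). The end-binding protein Mapre1, which tracks growing tips, averaged −0.14 ± 0.091 and did not pass, and its 2 features had means of −0.285 and 0.015. The remaining sperm-associated antigens did not pass: Spag1, which helps to assemble dynein arms, at 0.098 ± 0.093, Spag4, a nuclear envelope protein, at −0.24 ± 0.22 and Spag9, a scaffold that ties cargo to motors, at −0.13 ± 0.24. Spag4 passed without mouse 1 (mean −0.31, adjusted p = 0.0233).

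Of 8 measured neuronal markers, 1 was called below 0 and 1 above, namely Snap25 at −0.198 ± 0.13 and Stmn2 at 0.91 ± 0.14. That is 25%, against 49.6% of all genes and features. The median of these markers lay between −0.09 and 0.09 in every mouse. Snap25 lost its call without mouse 2, 3, 4 or 5 (adjusted p from 0.0603 to 0.0872). Markers of lung epithelium and endothelium had 7 of 10 called above 0 and 0 below, and of 7 macrophage markers 6 were called below 0 and 1 above. Among all genes and features, 25.8% were called above 0 and 23.9% below. The part of these cell types in the ratios of the microtubule genes was not tested. A ratio gives no level, so the tissue label could not be checked by abundance.

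The other 21 genes of the 92 had values on fewer than 4 arrays and entered no test. No array gave a value for 9 of them, Dnah5, Dync1i2, Ift140, Ift81, Kif1c, Kif21a, Kif2b, Kif3a and Mapre3. On 3 arrays, Bbs2, a BBSome subunit, stood at 0.70, 0.296 and 0.27 in mice 1, 4 and 5. Dnah11, an outer arm heavy chain, stood at 0.19, 0.48 and 0.42 in mice 2, 3 and 4. Dynlrb2, a light chain found in ciliated cells, stood at −0.39, −0.07 and −0.07 in mice 1, 4 and 5. Kif15, a spindle motor, and Kif2a, a depolymerase, lay between −0.09 and 0.03 on their 3 arrays each. The 7 genes with 1 or 2 values, Kif17, Kif18a, Kif27, Bbs5, Dnah8, Kif5a and Tekt3, lay between −0.16 and 0.34.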

How the data were processed

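Amplified lung RNA of 5 bleomycin-treated mice was measured on 2-colour arrays, each beside the same pool of amplified control RNA. The deposited values, made by the authors, are log ratios, taken here as log2 from their range and from medians near 0. Not given in the sources used here are the log base, the ratio's direction, dyes, scanner, background correction, normalization and filters. There were no counts, spot intensities or replicate pools. Signal over background is therefore unknown, and precision is limited by the 5 arrays.

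Of 17280 features, 14722 carried 1 symbol in the platform annotation, 1 several and 2557 none. Symbols were updated through RefSeq (GRCm38.p6), which matched 14445 of 14723 annotated features. Each array was centred on its median, features with values on at least 4 of 5 arrays were kept (10702), and features of 1 symbol were averaged, which gave 10081 genes and unnamed features. Mean ratios were set against 0 in limma 3.58.1 (R 4.3.3, lmFit and eBayes, Benjamini-Hochberg adjustment over all 10081, threshold 0.05). An exact sign-flip test over 5 arrays cannot go below p = 0.0625 and was not used. In the stricter pool test, the standard error was widened by the error of 1 further mouse. On simulated ratios for the same 10081 with 200 changed, limma recovered 79.5% of 1.5-fold and 93.7% of 2-fold changes over 10 runs, with 4.35% false calls. The simulated errors were independent between arrays, with no pool error and no dye effect. The share of false calls among the real ratios is therefore not known from it.

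The genes, roles and lists were chosen with earlier results of these data known. Named are, for either side, the 12 called genes with the largest ratios and every measured mouse on that side. Most of those are given mouse by mouse, and the others by mean and SD. In each role, the farthest called gene on each side and the gene with the largest spread are also named. From each pathway list the 2 farthest on each side are named, and marker lists are mostly given by their counts. Sets for tubulin folding, stathmins, IFT-A, IFT-B and the Ndc80 complex were picked after values were seen. Alternatives varied centring, scaling, the array minimum, averaging, symbols, the test, array weights, the pool and the mice.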

Additional observations from a re-analysis of the deposited data

Results flagged for a closer look

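The alpha tubulin Tuba1b stood out for 1 mouse. It was −1.416 in mouse 4, against values between −0.225 and 0.104 in the other 4 mice, a gap larger than Dixon's 95% critical value allows for 5 samples. Of the 71 measured genes, it was the single one for which a mouse stood so far from the rest (1.41%), and chance marks about 1 group in 20. The gene did not pass limma's test with all mice (adjusted p = 0.246).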

How the results depend on the processing

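Features and all genes past the threshold numbered 5002, and of the microtubule genes 20 were below 0 and 21 above. A minimum difference of 1.2-fold left 1847, 6 and 6, and the pool given the error of a mouse left 513, 2 and 3. Without 1 mouse at a time the counts ran from 4106 to 4616, 16 to 20 and 16 to 20. Without mice 1 and 2 together, an alternative chosen after seeing the data, they were 3597, 14 and 15. A plain one-sample test gave 3866, 16 and 15, and took 11 of the 41 calls. Of the 41 calls still tested, none was lost to centring, scaling, the array minimum, averaging of features, symbols or array weights, while the marker Cfap126 lost its call without centring (adjusted p = 0.0525). Tuba4a passed with scaling, with features on all 5 arrays and with array weights, Spag4 with scaling and with array weights, and Mapre1 with 1 feature per symbol (adjusted p = 0.00533).

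Genes near 0 changed side, none of them called. Without centring, Kif13b was at 0.008, Dnah1 at 0.006 and Tbce at 0.015. With 1 feature per symbol, Spag16 was at −0.045. Without 1 mouse at a time, Kif13b ran from −0.04 to 0.022, Kif3b from −0.017 to 0.059, Kif12 from −0.004 to 0.073, Kifc3 from −0.003 to 0.073, Dnah1 from −0.043 to 0.022 and Tbce from −0.014 to 0.028. The cause was not tested. No paired analysis was possible because all arrays belong to 1 group, measured against 1 pool.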
